A study of Homo sapiens with 8 samples.

Results

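The 48 genes described here encode the machinery of mitosis: CDK1 and its cyclins, the mitotic kinases, the spindle checkpoint, the kinetochore, the chromosomal passenger complex, the mitotic kinesins, and proteins of the spindle midzone and the cleavage furrow, together with the proliferation markers MKI67 and TOP2A and the transcription factors FOXM1 and MYBL2. They were chosen by name for this function, though with earlier results of these data known. They make up 48 of the 60291 gene identifiers in the count files. All 48 had enough reads to be tested, among 17811 tested genes, and the lowest count of any of them in any library was 193 reads. The 48 genes lie on 18 chromosomes.

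The cells were A549, an established human lung adenocarcinoma line in which a loss-of-function mutation of KEAP1 leaves the transcription factor NRF2, the product of NFE2L2, constantly active; every library shares this background. For each transfection 250000 cells received 5 nmol of an siRNA, a small double-stranded RNA through which the cell destroys mRNAs of matching sequence, and total RNA was collected 48 h later. The NFE2L2 siRNA group held 3 libraries, each from a different duplex against NFE2L2 transfected 1 time. The control siRNA group held 4 libraries, from 2 non-targeting duplexes with 2 transfections each, and 1 mock library came from cells given transfection reagent without siRNA. All libraries are from 1 cell line, so the p-values below measure the spread between libraries of that line. Within the NFE2L2 siRNA group this spread is between duplexes as well as transfections, and the control siRNA group mixes 2 duplexes.

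Gene counts ranged from 35525141 to 41645410 over the 8 libraries, and no library stood apart in depth. Levels are given as CPM, that is, counts for every 1000000 gene counts after TMM scaling, in the order duplex 1, 2 and 3 for NFE2L2 siRNA. NFE2L2 itself was at 32.9, 52.0 and 29.7 CPM with its siRNA, at 107 to 117 CPM in the 4 control libraries and at 110 CPM in the mock library, so that all 3 libraries matched their labels (log2 fold change −1.55, adjusted p = 0.000994, edgeR). The epithelial keratin KRT8 was at 4033 to 6288 CPM in the 7 transfected libraries. In control libraries KRT18 was at 3396 to 3546 CPM and CDH1 at 100 to 193 CPM. KRT19 was at 39.9 to 49.5 CPM and EPCAM at 3.9 to 7.0 CPM. With NFE2L2 siRNA, KRT19, EPCAM and CDH1 had log2 fold changes of 0.88, 0.80 and 0.74, which missed the threshold (adjusted p = 0.020, 0.062 and 0.045, edgeR). CDH1 also differed between the 2 control duplexes (log2 difference −0.67, adjusted p = 0.00586, edgeR). PTPRC, CD3E and DCN, which mark leukocytes and fibroblasts, had too few reads to be tested. Of the other markers of non-epithelial cells, COL1A1 was at 3.96 to 4.54 CPM in control libraries and 9.26 to 13.7 CPM with NFE2L2 siRNA, and rose (adjusted p = 0.000493, edgeR). CDH5 and PDGFRA rose as well, by log2 fold changes of 1.99 and 1.76 from under 0.4 CPM in every control library (adjusted p = 0.0082 and 0.0038), while COL3A1, at 0.970 to 1.746 CPM in control libraries and 2.069 to 3.503 CPM with NFE2L2 siRNA, missed the threshold (adjusted p = 0.036). In each of these 4 tested markers all 3 NFE2L2 siRNA libraries lay above the controls. The CPM of these 4 markers summed to 12.97 to 18.92 with NFE2L2 siRNA and to 5.54 to 6.82 in control libraries, and their part in the results for the mitotic genes was not tested.

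As background, most of these genes are silent in resting cells and are switched on together late in the cell cycle, in G2 and M phase. A complex of MYBL2 with the MuvB core, and later FOXM1, activates them through the cell cycle genes homology region (CHR), a short promoter element, and NF-Y acts beside it through CCAAT boxes. The same CHR is bound by the DREAM complex, which holds the genes off in resting cells. After mitosis begins, CDK1 with cyclin B drives chromosome condensation and spindle assembly, the kinetochores signal through MAD2L1 and the BUB proteins until every chromosome is attached, and CDC20 then turns on the anaphase-promoting complex (APC/C).

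The promoter elements could be seen directly in the reference sequence. RefSeq promoters of the GRCh38.p14 build, from 250 bases before to 50 bases after the annotated start, were matched for 41 of the 48 genes. The CHR letters TTTGAA stood on either strand in 28 of these 41 promoters (68.3%), against 15.4% of all 27305 promoters, and the variant TTTAAA, which reads the same on both strands, in 14 (34.1%), against 12.3%. Either form was present in 33 promoters (80.5%, against 24.3%), CCAAT in 31 (75.6%, against 35.7%), and a CHR together with CCAAT in 26 (63.4%, against 9.5%). Matches of different motifs can overlap, as where TTTGAA runs into ATTGG, the CCAAT box of the opposite strand. TGACNNNGC, the core of the antioxidant response element through which NRF2 acts, was found in 8 of the 41 promoters (19.5%, against 13.6%). Either CHR form was present in 51.8% of 83 promoters of further mitotic genes and in 9.3% of 43 promoters of G1/S and replication genes, which are expressed earlier in the cycle. The antioxidant response element core was present in 15.7% and 23.3% of the promoters of these lists. A match describes the letters in this window and is not evidence of binding.

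The 4 promoters below belong to genes on which the results turn, and capitals mark both CHR forms and the CCAAT box on either strand. MAD2L1 (chr4:120066799-120067098, minus strand) was the gene past the threshold in the pooled comparison, CDK1 (chr10:60778081-60778380, plus strand) carries both CHR forms around a CCAAT box, ANLN (chr7:36389612-36389911, plus strand) had the smallest p for a difference between duplexes and has 2 CHR matches on opposite strands end to end, and MYBL2 (chr20:43666864-43667163, plus strand), which had the lowest value of any of the 48 genes relative to control, has none of these letters. The 300 bases are printed 5′ to 3′ along the gene.
MAD2L1: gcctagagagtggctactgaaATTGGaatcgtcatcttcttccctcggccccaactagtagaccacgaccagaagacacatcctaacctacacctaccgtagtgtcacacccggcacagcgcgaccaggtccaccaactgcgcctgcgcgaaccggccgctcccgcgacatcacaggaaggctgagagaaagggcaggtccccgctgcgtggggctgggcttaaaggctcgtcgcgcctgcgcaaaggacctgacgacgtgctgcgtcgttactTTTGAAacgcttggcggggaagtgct
CDK1: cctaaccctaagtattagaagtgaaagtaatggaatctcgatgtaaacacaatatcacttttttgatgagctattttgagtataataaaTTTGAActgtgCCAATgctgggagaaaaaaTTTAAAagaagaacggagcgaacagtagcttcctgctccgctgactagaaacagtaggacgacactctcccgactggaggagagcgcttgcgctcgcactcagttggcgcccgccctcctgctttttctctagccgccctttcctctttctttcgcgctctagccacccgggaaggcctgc
ANLN: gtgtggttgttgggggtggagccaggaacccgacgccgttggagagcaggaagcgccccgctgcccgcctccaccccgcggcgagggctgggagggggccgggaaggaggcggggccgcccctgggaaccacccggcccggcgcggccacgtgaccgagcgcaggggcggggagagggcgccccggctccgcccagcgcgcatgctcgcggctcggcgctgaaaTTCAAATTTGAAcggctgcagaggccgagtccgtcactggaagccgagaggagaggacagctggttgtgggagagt
MYBL2: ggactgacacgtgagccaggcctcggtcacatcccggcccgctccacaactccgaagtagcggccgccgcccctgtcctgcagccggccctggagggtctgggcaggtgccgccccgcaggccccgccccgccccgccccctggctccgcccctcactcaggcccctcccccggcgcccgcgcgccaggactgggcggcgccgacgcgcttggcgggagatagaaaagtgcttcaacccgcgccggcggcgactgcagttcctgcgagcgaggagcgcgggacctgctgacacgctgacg

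**Figure D1:**
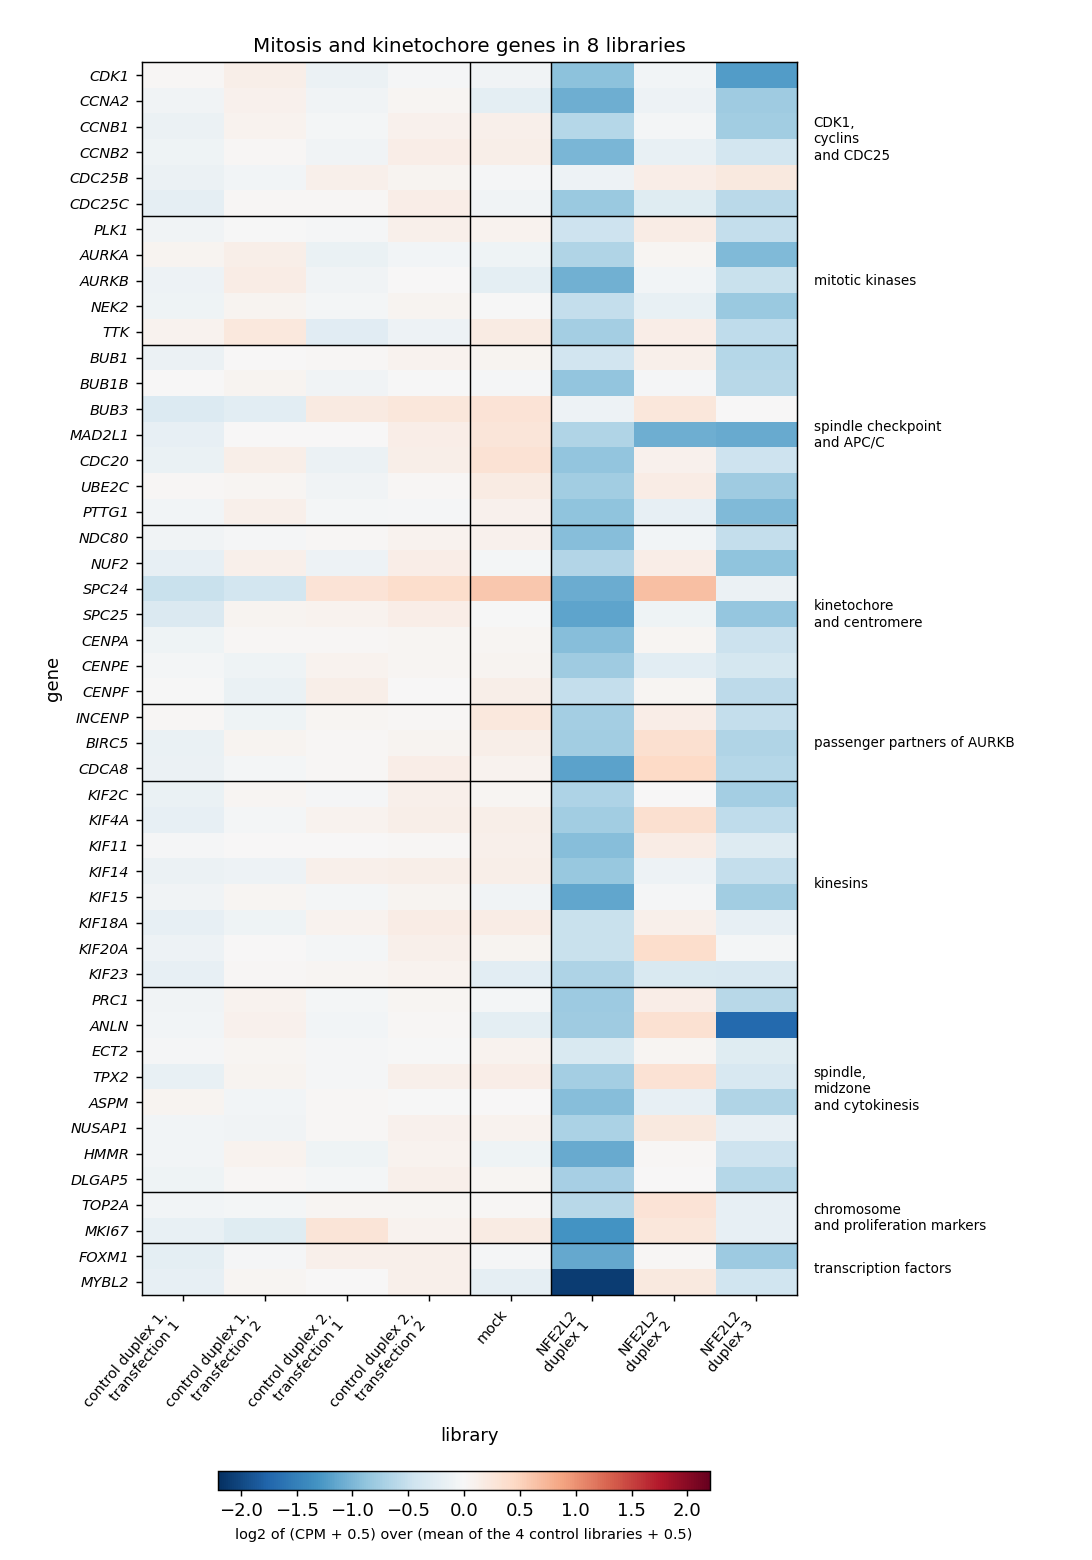
Level of each of the 48 genes (rows, grouped by role) in the 8 libraries (columns), as the log2 of (CPM + 0.5) over the control mean + 0.5; blue is lower and red higher than the mean of the 4 control siRNA libraries. The columns of NFE2L2 duplex 1 and duplex 3 are blue for nearly every gene (medians −0.77 and −0.57), and the column of NFE2L2 duplex 2 is not (median 0.04).

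The comparison of the 3 NFE2L2 siRNA libraries with the 4 control siRNA libraries asks which genes depend on NRF2 in these cells. Of the 48 mitotic genes 1, MAD2L1, fell past the threshold (adjusted p under 0.01, edgeR quasi-likelihood test), against 1.36% of all tested genes that fell and 2.76% that changed in either direction. In the pooled comparison 46 of the 48 log2 fold changes were nonetheless negative (44 when libraries were scaled by size alone), against 8682 of 17811 tested genes. By duplex the number was 48, 17 and 46 for duplexes 1, 2 and 3. The median of the pooled comparison was −0.41, against 0.01 over all tested genes. At an unadjusted p under 0.05 there were 21 of the 48 genes, each of them lower, against 11.7% of all genes lower. In 9 of the 48 the groups did not overlap, every NFE2L2 siRNA value being under every control value, against 11.4% of all tested genes lower. That count was 5 when libraries were scaled by size alone, against 9.51%, and 43 without NFE2L2 duplex 2, against 20.2%. In bulk RNA, fewer cells in mitosis and less of these mRNAs in each cell cannot be told apart. DESeq2 called 2 of the 48, KIF23 and MAD2L1, both lower, against 3.32% of all genes lower and 7.38% in either direction.

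MAD2L1 (ENSG00000164109.9, chr4:120976778-120988013 of GRCh37, minus strand) encodes the checkpoint protein that holds back CDC20 until all kinetochores are attached. Its level was 36.9, 27.8 and 27.0 CPM with NFE2L2 siRNA, against 51.9, 59.3, 59.4 and 64.9 CPM with control siRNA and 70.9 CPM in the mock library. Every NFE2L2 siRNA library was below every control library, and the group mean was 51.9% of the control mean (log2 fold change −0.95, SE 0.13, adjusted p = 0.0030, edgeR). The adjusted p was 0.0155 without NFE2L2 duplex 3, and 0.0123 to 0.0150 without transfection 2 of control duplex 1 or without either transfection of control duplex 2. It was 0.050 against control duplex 1 alone and 0.038 against control duplex 2 alone. By duplex, the log2 difference from the 4 control libraries was −0.67, −1.08 and −1.12 with duplexes 1, 2 and 3. With duplex 1 alone MAD2L1 missed the threshold.

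In the single libraries, the values of the mitotic genes split by duplex. NFE2L2 duplex 1 placed 46 of the 48 genes below all 4 control libraries, against 33.1% of all tested genes, and duplex 3 placed 43 of them there, against 33.4%. Duplex 2 placed 9 below and 17 above, against 31.0% and 31.6%. The CPM of the 48 genes summed to 3391 with duplex 1, 5873 with duplex 2 and 3934 with duplex 3, against 5159 to 5689 in the control libraries and 5623 in the mock library. The duplex 2 library thus had the highest sum of the 8 libraries, and the other 2 NFE2L2 siRNA libraries the lowest.

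**Figure D2:**
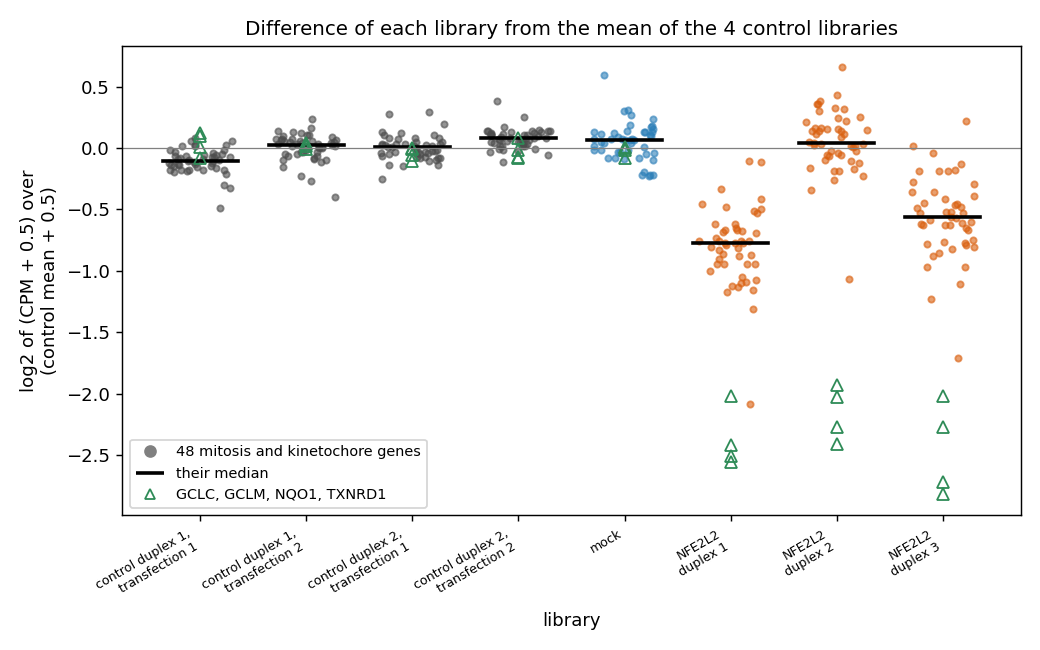
Each point is 1 of the 48 mitotic genes in 1 library, as the log2 of (CPM + 0.5) over the control mean + 0.5, bars mark their median, and open triangles are the NRF2 targets GCLC, GCLM, NQO1 and TXNRD1. The mitotic genes are low with NFE2L2 duplexes 1 and 3 and near 0 with duplex 2 (medians −0.77, −0.57 and 0.04), while the 4 NRF2 targets are low with all 3 duplexes.

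Each NFE2L2 duplex was then tested alone against the 4 control libraries, with its single library assumed to vary as the control libraries do; the 3 tests share their controls. With duplex 1, 33 of the 48 genes fell, against 4.62% of all tested genes, and the median log2 difference was −0.78. With duplex 3, 19 fell, against 3.54%, with a median of −0.57. With duplex 2, only MAD2L1 of the 48 fell, against 1.83%, and the median was 0.04. At an unadjusted p under 0.05 duplex 2 had 10 of the 48, against 25.8% of all genes, and 3 of the 10 were lower, against 12.8%. The median over all tested genes was within 0.01 of 0 in each of the 3 tests. Scaled by library size alone, the counts were 27, 1 and 12 for duplexes 1, 2 and 3, against 7.02, 2.94 and 6.26% of all genes in either direction. They also rest in part on particular control libraries, as do the shares of all genes, which were 7.25, 2.93 and 6.47% with all libraries. Without transfection 2 of control duplex 1 the counts were 20, 0 and 5 for duplexes 1, 2 and 3, against 3.27, 1.04 and 2.34%. Without transfection 1 of control duplex 2 they were 26, 0 and 12, against 5.50, 1.69 and 4.46%. Without transfection 2 of control duplex 2 they were 17, 0 and 5, against 3.36, 1.17 and 2.49%.

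A test of any difference among the 3 NFE2L2 duplexes called 15 of the 48 genes, against 2.71% of all tested genes, and 45 of the 48 had an unadjusted p under 0.05, against 29.0%. This count was 2, 6 and 3 without the same 3 control libraries in turn, against 0.659, 1.45 and 0.626% of all tested genes. The duplexes also differed in NFE2L2 itself: its log2 difference from control was −1.76, −1.10 and −1.91 with duplexes 1, 2 and 3 (adjusted p of the difference = 0.0094, edgeR). The NRF2 targets in the plot of differences by library, named after their values were seen, fell with every duplex. GCLC, which makes the precursor of glutathione, was at −2.03, −2.04 and −2.03, and GCLM, its partner subunit, at −2.57, −2.28 and −2.74. NQO1, a quinone reductase, was at −2.42, −1.93 and −2.27, and TXNRD1, thioredoxin reductase, at −2.51, −2.41 and −2.82. None of the 4 targets passed the test of a difference among duplexes (adjusted p from 0.0588 to 0.998, edgeR). Whether the remaining NFE2L2 level has a part in the mitotic genes' values was not tested.

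**Figure D3:**
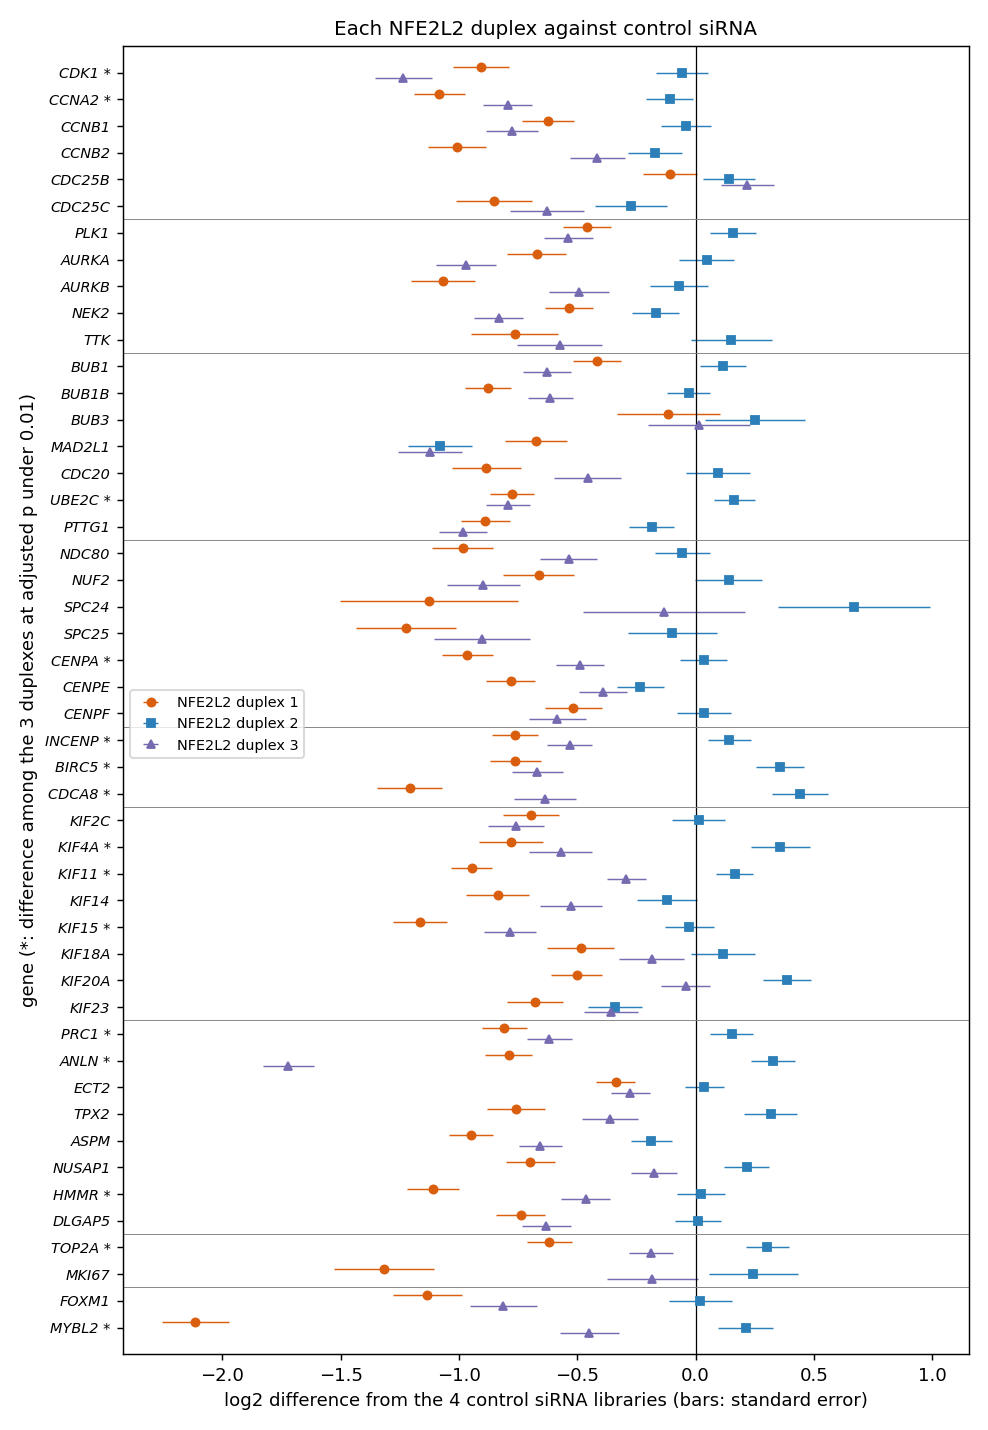
Log2 difference of each NFE2L2 duplex from the 4 control siRNA libraries for the 48 genes, grouped by role, with bars for the standard error; an asterisk marks the 15 genes with a difference among the duplexes at an adjusted p under 0.01. Duplex 2 lies to the right of duplexes 1 and 3 for most genes, and MAD2L1 is the gene for which it is far to the left of 0 (−1.08).

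CDK1, the kinase whose activity defines mitosis, and its cyclins and phosphatases made up the first group. CDK1 (ENSG00000170312.11, chr10:62538089-62554610 of GRCh37) was at 75.9, 136.9 and 60.4 CPM with NFE2L2 siRNA, against 145, 156, 129 and 139 CPM with control siRNA. The values with duplexes 1 and 3 were far under every control value, and duplex 2 was inside the control range. The difference among duplexes passed the test (adjusted p = 0.00578, edgeR), and the pooled comparison did not (log2 fold change −0.64, SE 0.23, adjusted p = 0.12). Cyclin A2 (CCNA2), which works with CDK1 and CDK2 from S phase to prometaphase, was at 45.1, 88.6 and 55.0 CPM, against 90.9, 102, 90.6 and 98.0 CPM. All 3 libraries lay below the controls, duplex 2 by a margin of 2.0 CPM (log2 fold change −0.60, SE 0.20, adjusted p = 0.092).

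Cyclin B1 (CCNB1), the main mitotic partner of CDK1, was at 124, 186 and 112 CPM against 176, 201, 186 and 203 CPM, again with duplex 2 inside the control range. CDC25C, the phosphatase that activates CDK1 at entry into mitosis, was at 7.86, 11.7 and 9.17 CPM against 12.3, 14.4, 14.4 and 15.7 CPM, without overlap (log2 fold change −0.56, SE 0.15, adjusted p = 0.052). Of the 6 genes in this group, 4 fell with duplex 1 and 3 with duplex 3, against 4.62 and 3.54% of all tested genes. CDC25B, a phosphatase that acts earlier than CDC25C, was 1 of the 2 mitotic genes with a positive log2 fold change (0.09, SE 0.11, adjusted p = 0.65).

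Among the 5 mitotic kinases, none passed the pooled test in edgeR or DESeq2, and all had negative log2 fold changes from −0.49 to −0.24. At an unadjusted p under 0.05 there were 3 (edgeR), against 11.7% of all tested genes lower. NEK2, which separates the centrosomes, was at 39.1, 50.4 and 31.8 CPM against 53.2, 59.1, 54.8 and 59.4 CPM, and the groups did not overlap (log2 fold change −0.49, SE 0.14, adjusted p = 0.070). AURKB, the catalytic subunit of the chromosomal passenger complex, was at 21.6, 43.3 and 32.3 CPM against 41.9, 51.0, 42.9 and 45.8 CPM. PLK1, which acts on centrosomes, kinetochores and the midzone, was at 43.1, 66.2 and 40.8 CPM against 55.9, 58.7, 58.5 and 63.9 CPM. The duplex 2 value of PLK1 was above all 4 control values and the other 2 were below them. NEK2 and AURKA fell with duplex 3, and AURKB fell with duplex 1.

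The partners of AURKB in the passenger complex differed among the duplexes in all 3 cases, against 2.71% of all tested genes. BIRC5 (survivin) was at 72.1, 157 and 76.9 CPM against 111, 127, 124 and 127 CPM, so that duplex 2 was above and the other 2 were below every control library (adjusted p of the difference among duplexes = 0.00395, edgeR). INCENP, the scaffold of the complex, was at 35.3, 66.2 and 41.5 CPM against 61.0, 55.9, 61.5 and 61.4 CPM, with the same arrangement. CDCA8 (borealin) had log2 differences from control of −1.21, 0.44 and −0.64 with duplexes 1, 2 and 3.

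**Figure D4:**
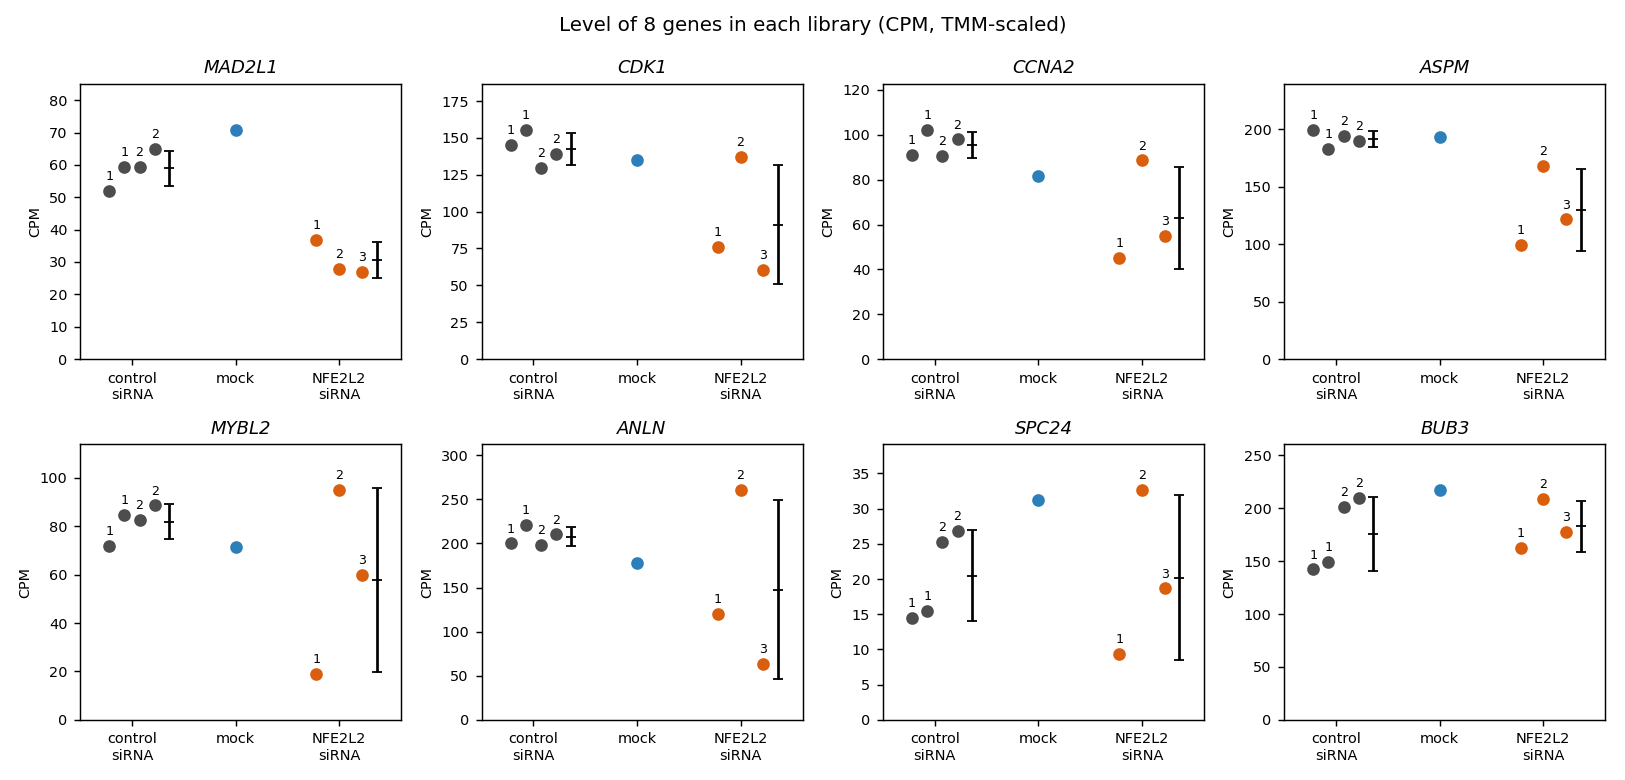
CPM of 8 of the mitotic genes in each library, with the duplex number beside each point and the mean ± SD of each siRNA group as black bars (n = 4 control, n = 3 NFE2L2; the mock library is shown alone). MAD2L1 is low with all 3 NFE2L2 duplexes, CDK1, CCNA2, MYBL2 and ANLN are near or above the control range with duplex 2, and SPC24 and BUB3 differ between the 2 control duplexes.

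In the spindle checkpoint and APC/C group, apart from MAD2L1, the pooled test called none of the other 6 genes. PTTG1 (securin), the inhibitor of separase that the APC/C removes at anaphase, was at 35.5, 57.8 and 33.2 CPM against 63.2, 70.7, 64.1 and 64.6 CPM. The groups did not overlap (log2 fold change −0.64, SE 0.18, adjusted p = 0.057). UBE2C, the ubiquitin-conjugating enzyme of the APC/C, had log2 differences of −0.78, 0.16 and −0.79 by duplex and differed among duplexes (adjusted p = 0.00342, edgeR). BUB1B, BUB1 and CDC20 had log2 fold changes of −0.46, −0.27 and −0.36. BUB3 was the other gene with a positive log2 fold change (0.06, SE 0.16), and its sign depended on the controls used: it was −0.17 against control duplex 2 alone.

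The kinetochore and centromere genes encode the NDC80 complex (NDC80, NUF2, SPC24 and SPC25), which binds microtubules, the centromeric histone CENPA, the motor CENPE and the large coiled-coil protein CENPF. None passed the pooled test in edgeR or DESeq2, and the log2 fold changes ran from −0.66 to −0.02. In edgeR 3 of 7 had an unadjusted p under 0.05, each lower, against 11.7% of all tested genes lower. CENPE was at 47.0, 68.7 and 61.6 CPM against 78.3, 75.6, 85.5 and 83.7 CPM, without overlap (log2 fold change −0.45, SE 0.13, adjusted p = 0.061). SPC25 was at 5.40, 11.8 and 6.75 CPM against 9.97, 13.1, 13.4 and 13.96 CPM, with duplex 2 inside the control range. SPC24, in the same complex, went from 9.37 CPM with duplex 1 to 32.6 CPM with duplex 2 and 18.7 CPM with duplex 3, but its controls ranged from 14.4 to 26.8 CPM and no NFE2L2 test of it passed (adjusted p = 0.080 among duplexes, edgeR).

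Of the 8 kinesins, motor proteins of the spindle, KIF23 came nearest to the threshold. KIF23, a subunit of the centralspindlin complex that organises the midzone, was at 106, 134 and 133 CPM against 151, 174, 176 and 180 CPM. All 3 NFE2L2 siRNA libraries were below the controls (log2 fold change −0.45, SE 0.11, adjusted p = 0.037, edgeR; adjusted p = 0.0069, DESeq2). The mock library, at 145 CPM, was also below all 4 control siRNA libraries. KIF14, a midzone kinesin, was at 42.7, 70.3 and 53.0 CPM against 69.6, 70.5, 82.2 and 83.1 CPM, with the duplex 2 value between control values. KIF11 (Eg5), which separates the spindle poles, had log2 differences of −0.95, 0.17 and −0.29 by duplex, and KIF15, KIF4A and KIF11 passed the test of a difference among duplexes. KIF20A had a pooled log2 fold change of −0.01, made of −0.50, 0.39 and −0.04 by duplex.

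The spindle, midzone and cytokinesis group had 7 of 8 genes that fell with duplex 1, against 4.62% of all tested genes. With duplex 3 there were 4, against 3.54%, and the median log2 difference with duplex 2 was 0.10. ASPM, a spindle pole protein, was at 99.4, 169 and 122 CPM against 200, 183, 194 and 190 CPM, without overlap (log2 fold change −0.56, SE 0.16, adjusted p = 0.057). DLGAP5 (HURP), which stabilises kinetochore fibres, was at 58.7, 98.7 and 63.3 CPM against 91.6, 99.3, 95.4 and 105 CPM. ANLN (anillin), the scaffold of the cleavage furrow, is named for its spread, seen in the data: it was at 120, 260 and 62.9 CPM against 200, 221, 198 and 210 CPM. Its log2 difference from control was −0.79, 0.33 and −1.72 by duplex, and its adjusted p among duplexes was the lowest of the 48 genes (0.0013, edgeR). PRC1 and HMMR also differed among duplexes, whereas ECT2, which acts in cytokinesis, had small differences of −0.34, 0.04 and −0.28.

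TOP2A, the topoisomerase that untangles chromosomes, was the highest of the 48 genes per kilobase of exon, at a mean of 105 CPM per kb in the control libraries, and CDC25C the lowest at 4.26 CPM per kb. TOP2A was at 437, 829 and 589 CPM against 641, 655, 696 and 693 CPM, and differed among duplexes (adjusted p = 0.00866, edgeR). MKI67, the Ki-67 antigen, was at 63.3, 187 and 139 CPM against 142, 131, 192 and 167 CPM. For both genes the pooled log2 fold change was negative (−0.12 and −0.28) but turned positive, at 0.08 and 0.05, without NFE2L2 duplex 1.

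The 2 transcription factors are known activators of the other genes described here. FOXM1 was at 34.3, 76.5 and 42.9 CPM against 65.0, 73.7, 81.1 and 81.9 CPM, and fell with duplex 1 (log2 difference −1.13, SE 0.15) and duplex 3 (−0.81, SE 0.14). MYBL2 was at 18.9, 94.9 and 60.02 CPM against 71.9, 84.5, 82.6 and 88.6 CPM. Duplex 1 left it lower than any other of the 48 genes relative to control (log2 difference −2.11, SE 0.14), duplex 2 was above all 4 control libraries, and the duplexes differed (adjusted p = 0.00152, edgeR). The MYBL2 value with duplex 3 (−0.45, SE 0.12, adjusted p = 0.043) did not pass the threshold.

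**Figure D5:**
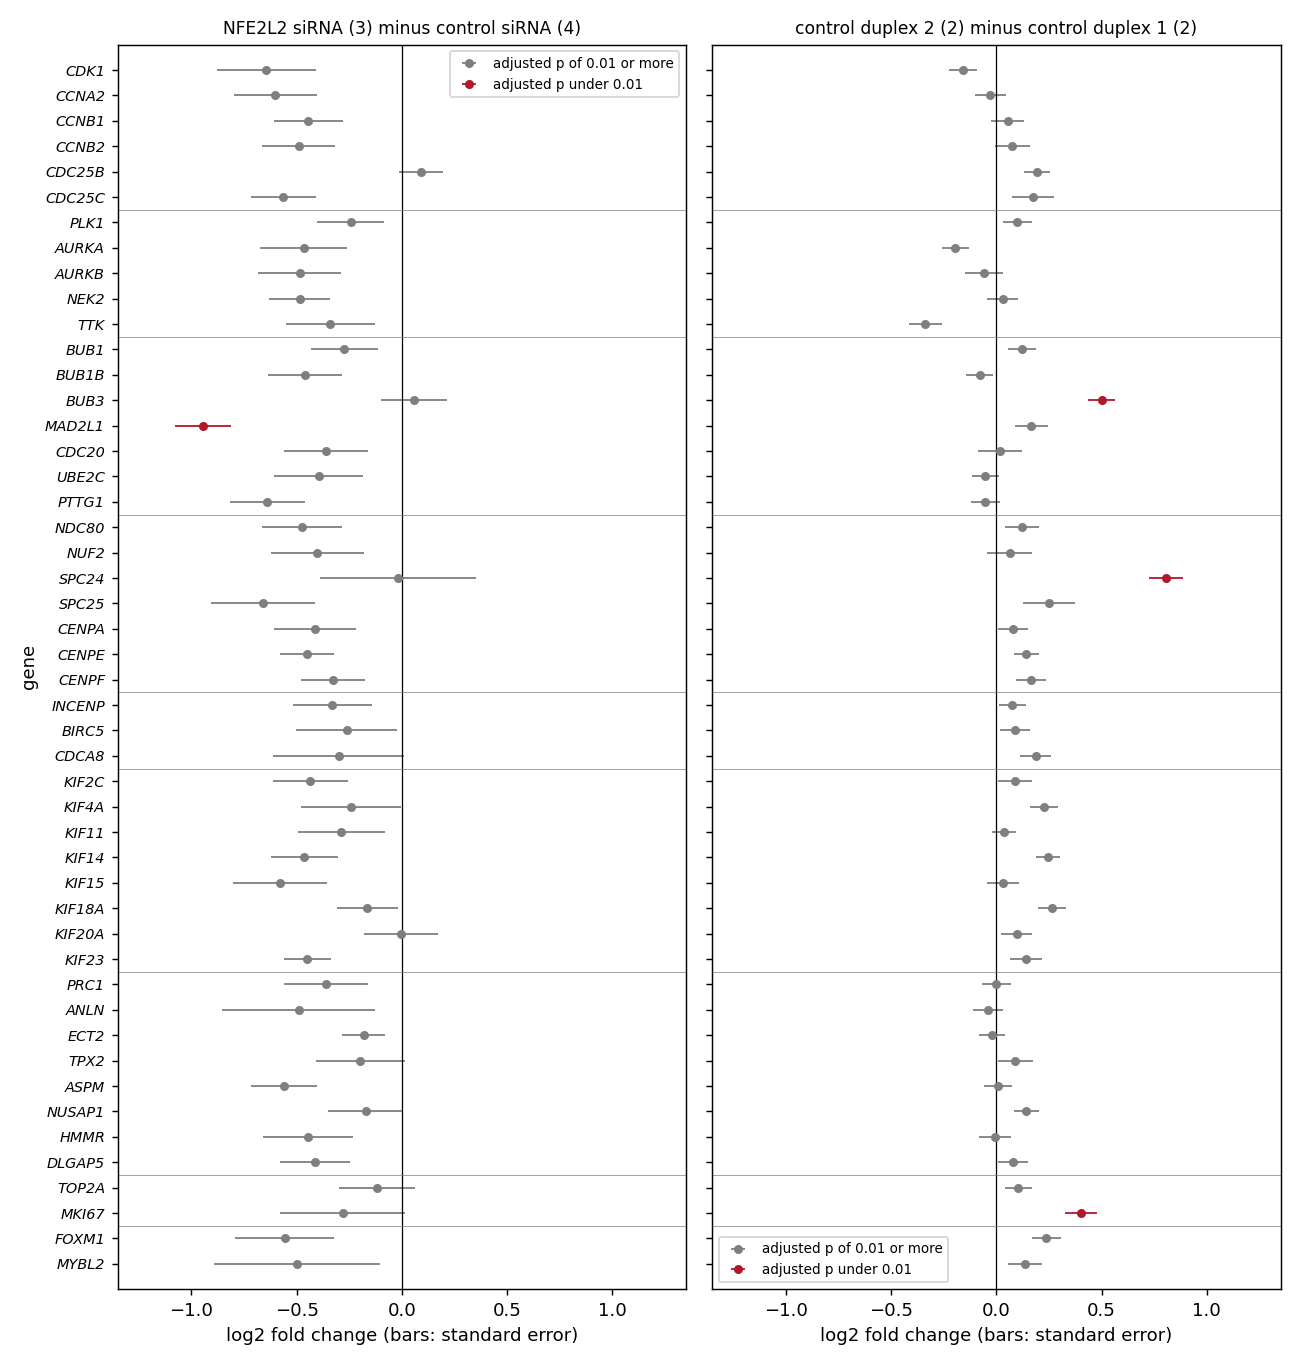
Log2 fold change with its standard error for the 48 genes (rows, by role): left, the 3 NFE2L2 siRNA libraries minus the 4 control siRNA libraries; right, control duplex 2 minus control duplex 1 (2 libraries each). MAD2L1 alone is past the threshold on the left and SPC24, BUB3 and MKI67 on the right, and the standard errors on the left are longer than those on the right for each of the 48 genes.

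The 2 control duplexes were compared with each other to show how far the mitotic genes move between siRNAs that have no intended target. Control duplex 2 was higher than control duplex 1 for 3 of the 48 genes and lower for 0 (edgeR), against 1.77% of 17261 tested genes higher and 3.28% in either direction; 15 had an unadjusted p under 0.05, of which 3 were lower, against 26.0% of all genes in either direction, and DESeq2 called the same 3 genes. SPC24 was at 14.4 and 15.4 CPM with control duplex 1 and at 25.2 and 26.8 CPM with control duplex 2 (log2 difference 0.81, SE 0.08, adjusted p = 0.000287). BUB3, which carries the BUB kinases to kinetochores, was at 142 and 150 CPM against 201 and 210 CPM (log2 difference 0.50, SE 0.06, adjusted p = 0.0012). MKI67 was at 142 and 131 CPM against 192 and 167 CPM (log2 difference 0.40, adjusted p = 0.00999, at the edge of the threshold). SPC24 and BUB3 were named after their values were seen. The median difference of the 48 genes was 0.09, against 0.01 over all tested genes. These counts rest on 2 libraries of each duplex. Leaving 1 out leaves a single library of its duplex, and no count is given for those fits.

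The mock library, which had no replicate, lay within the range of the 4 control libraries for 28 of the 48 genes, above it for 14 and below it for 6, against 22.7% above and 22.6% below among all tested genes. Its median log2 difference from the control mean was 0.06. For BUB3 and SPC24 it was at 217 and 31.2 CPM, above both control duplexes, and for MYBL2 at 71.6 CPM it was just below the lowest of them.

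Other genes of the cell cycle, from lists set up for comparison, were compared in the same way. Of 99 further mitotic genes, 1 fell in the pooled comparison, against 1.36% of all tested genes. Negative log2 fold changes were found for 92 (median −0.35), against 8682 of 17811 tested genes. With duplexes 1, 2 and 3, 55, 6 and 33 of the 99 fell, against 4.62, 1.83 and 3.54% of all tested genes. The test of any difference among duplexes called 25 of the 99, against 2.71% of all tested genes. The gene that fell, HJURP, is the chaperone that loads CENPA onto centromeres. It was at 41.5, 79.5 and 40.6 CPM against 144, 150, 151 and 161 CPM (log2 fold change −1.49, SE 0.22, adjusted p = 0.0038, edgeR), and was low with every duplex though less so with duplex 2. Its adjusted p rose to between 0.010 and 0.0178 without NFE2L2 duplex 1 or 3 or without any control library. DEPDC1, RACGAP1 (the partner of KIF23 in centralspindlin) and the kinetochore protein MIS12 came next, with log2 fold changes of −0.88, −0.74 and −0.38 and adjusted p of 0.0106, 0.0117 and 0.0304. These 3 genes were below all 4 control libraries with each duplex, including duplex 2.

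Of 53 genes of G1/S and DNA replication, 2 fell in the pooled comparison, against 1.36% of all tested genes. Negative log2 fold changes were found for 49, with a median of −0.51. With duplexes 1, 2 and 3, 40, 1 and 24 of the 53 fell, against 4.62, 1.83 and 3.54% of all tested genes. The test of any difference among duplexes called 22 of the 53, against 2.71%, so the split by duplex was not particular to the mitotic genes. MCM5, a subunit of the replicative helicase, was at 48.2, 65.5 and 58.6 CPM against 99.5, 105, 96.2 and 102 CPM (log2 fold change −0.81, SE 0.11, adjusted p = 0.0027, edgeR). RRM2, the regulated subunit of ribonucleotide reductase, was at 87.4, 147 and 89.7 CPM against 205, 223, 218 and 232 CPM (log2 fold change −1.02, SE 0.17, adjusted p = 0.0077). Without NFE2L2 duplex 3 both missed the threshold (adjusted p = 0.0125 and 0.0347), as they did without transfection 2 of control duplex 1 or either transfection of control duplex 2, and RRM2 also without NFE2L2 duplex 1 or transfection 1 of control duplex 1. MCM3, of the same helicase, had a log2 fold change of −0.57 (SE 0.12, adjusted p = 0.0173).

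Of 32 tested cell cycle regulators, none passed in edgeR, against 2.76% of all tested genes, and 2 passed in DESeq2, against 7.38%. At an unadjusted p under 0.05 there were 11, of which 6 were lower, against 25.0% of all tested genes in either direction. CDKN1A (p21), the CDK inhibitor that p53 induces, was at 161, 180 and 180 CPM against 175, 202, 175 and 194 CPM, and the groups overlapped (log2 fold change −0.10, SE 0.09, adjusted p = 0.54). MYC was at 136, 130 and 122 CPM against 159, 177, 166 and 175 CPM (log2 fold change −0.39, adjusted p = 0.024), with all 3 duplexes below the controls. For MXI1, an antagonist of MYC, the log2 fold change was −0.83 (adjusted p = 0.059). CCNG2 and CDKN1C, which are linked to cell cycle arrest, had positive values of 0.40 and 0.64 (adjusted p = 0.078 and 0.097).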

How the data were processed

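Total RNA of A549 cells was sequenced in 8 libraries: 3 NFE2L2 siRNA, 4 control siRNA and 1 mock, grouped by their labels. The authors aligned reads with HISAT 0.1.6 to hg19 and deposited counts: whole numbers of reads per GENCODE gene from HTSeq 0.6.0, strand-specific, without normalisation. Reads that HTSeq assigned to no gene (34.4 to 39.7% per library) were left out of library sizes.

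Symbols came from GENCODE 44 mapped to GRCh37 (55538 of 60291 identifiers). UHRF1 and PECAM1 were not analysed here. Genes reaching 10 reads in at least 1 library entered the fit in R 4.3.3 with edgeR 4.0.16 (TMM, glmQLFit, glmQLFTest, prior count 0.125), two-sided. P-values were adjusted by Benjamini-Hochberg across every gene in the fit, and the threshold was an adjusted p of 0.01. Standard errors are the log2 fold change over the root of F. For single duplexes the spread came from the control libraries. The mock library was described beside the controls and not tested.

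The mitotic genes, gene lists and tests were chosen with earlier results of these data known. Values in every library were given for genes past the threshold, for the genes of each role with the smallest p, and for CDK1, CCNB1, PLK1, MKI67, FOXM1 and MYBL2; of each other list the 4 genes with the smallest p and CDKN1A were named, except for an item that is not reported here. Alternatives were DESeq2 1.42.0, limma-voom (limma 3.58.1), other size factors, filters, thresholds and control groups, a transfection block and the omission of each library. The code was tested on simulated data. Replicate libraries differed by more than sampling noise.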

Additional observations from a re-analysis of the deposited data

Results flagged for a closer look

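Of 38 genes examined in the 4 control libraries, 2 had a library far from the other 3 by Dixon's criterion; chance alone flags about 1.9. INCENP was at 55.944 CPM in transfection 2 of control duplex 1, with a gap of 0.92 of the whole range, and RACGAP1 was at 104.938 CPM in transfection 1 of control duplex 1, with a gap of 0.84.

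For 15 of the mitotic genes the 3 NFE2L2 duplexes differed (edgeR, adjusted p under 0.01). The adjusted p was 0.0013 for ANLN, 0.00152 for MYBL2, 0.00285 for KIF11, 0.00297 for CDCA8, 0.00342 for UBE2C, 0.00395 for BIRC5, 0.0055 for PRC1, 0.00578 for KIF15 and CDK1, 0.00611 for HMMR, 0.00806 for INCENP, 0.00827 for CCNA2, 0.00866 for TOP2A, 0.00928 for CENPA and 0.00974 for KIF4A. In each of the 15, the log2 difference from control with duplex 2 was higher than with duplex 1 and duplex 3. ANLN was the lowest of them with duplex 3 (−1.72) and MYBL2 with duplex 1 (−2.11). Each duplex had 1 library, so the duplex and its transfection cannot be told apart.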

How the results depend on the processing

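Signs held for the median of the mitotic genes in every alternative and for all but 4 of the 38 named genes. Leaving out each library in turn gave 0 to 26 mitotic genes past the threshold (26 without NFE2L2 duplex 2, against 2.94% of all genes lower, and at most 1 without any other library, against 0.720 to 1.48%), 0 to 44 further mitotic genes, 0 to 31 G1/S genes and 0 to 2 regulators, a median log2 fold change from −0.70 to −0.24, and 9 to 43 mitotic genes without overlap between groups; over all genes the share lower without overlap was 12.4 to 20.2% in these fits, against 11.4% with all libraries. Leaving out 1 control library gave 17 to 36 mitotic genes for duplex 1, against 3.27 to 8.11% of all genes in either direction. It gave 0 to 1 for duplex 2, against 1.04 to 3.42%, and 5 to 22 for duplex 3, against 2.34 to 7.40%. For the difference among duplexes it gave 2 to 16, against 0.626 to 3.03%. No alternative varied the depth.

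For mitotic, further mitotic, G1/S and regulator genes in that order, DESeq2 called 2, 6, 12 and 2 (1314 genes in all, against 491), the filter of 1 read 2, 6, 10 and 1 (1019 genes), and the threshold of 0.05 2, 6, 9 and 1 (1456 genes). With control duplex 1 alone or control duplex 2 alone, edgeR called 0, 0 and 0 of the first 3 lists (120 and 59 genes in all). In these fits 8 and 9 mitotic genes had an unadjusted p under 0.05. The share of all tested genes under 0.05 is not given for these 2 fits, so the counts have no background beside them. Adding the mock library to the controls gave 3 further mitotic genes, 4 G1/S genes and 1 regulator (772 genes in all). The limma-voom and robust fits gave 2 further mitotic genes each (465 and 509 genes). Control duplexes as separate groups gave 1 G1/S gene (448 genes). Scaling by library size alone left 5 mitotic genes without overlap, against 9.51% of all genes lower. It left 12 past the threshold with duplex 3, against 6.26% in either direction. The filter of 1 read gave 24 for the difference among duplexes, against 2.22% of all genes. The threshold of 0.05 gave 37 there and 35 with duplex 3. A looser threshold passes more of all genes as well, and their share at 0.05 is not given for these tests. The causes of these shifts were not tested.

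Between the control duplexes the filter of 1 read gave 0 mitotic genes among 4 genes in all. With that filter 11 mitotic genes had an unadjusted p under 0.05, and the share of all genes there is not given. DESeq2 gave 3 among 760 genes in all, and the threshold of 0.05 gave 6 among 1736. With the transfection number as a replicate block it gave 10, among 2615 genes in all against 566; the difference between transfections 1 and 2 correlated at 0.46 across 9711 genes between the duplexes, but no label says that a number marks a shared day. No paired analysis was possible for NFE2L2 siRNA because its duplex numbers match no transfection of the controls.

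The log2 fold change reversed for SPC24 (0.012 by library size alone, 0.43 against control duplex 1 alone, 0.037 with control duplexes as separate groups, −0.56 to 0.32 without 1 library) and BUB3 (−0.17 against control duplex 2 alone, −0.0082 with the mock library among the controls, −0.063 to 0.15 without 1 library). Without 1 library it ran from −0.66 to 0.046 for MKI67 and from −0.40 to 0.078 for TOP2A.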
